A study of Rattus norvegicus with 4 samples.

Results

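The DNA replication genes described here are the components of the machinery that licenses, starts and runs replication forks. They were chosen by name, from 44 listed gene symbols, with no measured value in the rule. Of these, 43 were found among the 16881 gene symbols of the count tables, all 43 had 10 or more counts in at least 1 library, and Chaf1a was not analysed here. The study grew wild-type rat neural stem/progenitor cells (NSPCs) on 2 culture platforms, PUCL@CNT1 and bare PUCL, names that the labels do not spell out, and sequenced the 3′ ends of their polyadenylated transcripts with a Lexogen QuantSeq kit. Each of the 4 groups was 1 library, so no value has a replicate error. In the differentiation libraries, the cells spent 24 h in stemness-maintaining medium (knockout DMEM/F12 with StemPro Neural Supplement) and then a further 1.5 d in a neuronal medium with B-27 Plus. In the maintenance libraries, they were collected after the 24 h, so the differentiation libraries differ from them in both medium and time in culture. The design text asks how expression differs between the platforms before and after the medium is switched.

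Eukaryotic replication origins are licensed in G1, when the origin recognition complex, CDC6 and CDT1 load the MCM2-7 helicase, and they fire in S phase, when CDC45 and the GINS complex join the helicase. Polymerases, the PCNA clamp with its RFC loader, RPA, FEN1 and DNA ligase 1 then copy both strands, while ribonucleotide reductase and its partners supply the nucleotides. Most of these genes are transcribed at the G1-to-S transition under E2F factors, and their transcripts are abundant in cycling progenitors and scarce in cells that have left the cycle.

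The promoters of several members hold sequences that match the E2F site. RefSeq promoters (GRCr8 assembly, 250 bases before to 50 after the annotated start) were available for 36 of the 43 genes. The letters TTTGGCGC or TTTCGCGC, searched on both strands, occurred in 13 of the 36, or 36.1%, against 1.5% of the 8026 promoters of genes tested and 0.841% of all 27457 promoters in the table. CCAAT, the NF-Y box, occurred in 22 of the 36 (61.1%, against 37.8% of the promoters of genes tested). The CHR element of mitotic genes, searched as TTTGAA or TTCGAA, occurred in 6 of the 36 (16.7%, against 12.9%). In the promoters of 32 mitosis and G2/M genes the E2F letters occurred in 3.12%, CCAAT in 84.4% and the CHR letters in 81.2%. A match is a description of these letters and not a shown binding site. The stretches below are shown because they carry the match upstream of the start in 4 helicase subunits, in the primase-polymerase subunit Pola1 and in Tyms. Gins1 also has overlapping matches upstream of the start, with first bases at -25 and -21, and its stretch is not shown. On PUCL@CNT1 Tyms was higher in differentiation than in maintenance medium, while the other genes shown were lower. Capitals mark the match on either strand. A run of 12 capitals is a match on each strand that overlap, and the sequences read 5′ to 3′ along the gene's strand.
Mcm2, chr4:122918095-122918138, minus strand: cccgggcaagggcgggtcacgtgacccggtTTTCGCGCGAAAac
Mcm5, chr19:13488570-13488641, plus strand: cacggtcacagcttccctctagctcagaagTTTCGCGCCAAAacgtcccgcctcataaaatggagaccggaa
Mcm6, chr13:42404450-42404521, minus strand: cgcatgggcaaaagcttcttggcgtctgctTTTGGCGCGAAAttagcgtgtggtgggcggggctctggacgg
Mcm7, chr12:22163193-22163260, minus strand: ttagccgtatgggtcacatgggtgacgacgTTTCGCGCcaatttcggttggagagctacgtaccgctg
Pola1, chrX:62342490-62342557, minus strand: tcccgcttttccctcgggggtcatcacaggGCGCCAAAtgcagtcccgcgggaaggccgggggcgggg
Tyms, chr9:120776084-120776150, minus strand: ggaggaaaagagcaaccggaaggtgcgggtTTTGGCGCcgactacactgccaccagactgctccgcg

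The 4 libraries held 6035848 to 6855984 counts, and 9584 to 9842 symbols had a count in each. The ribosomal RNA entry Rn45s took 4.25% and 4.54% of counts in the PUCL@CNT1 differentiation and maintenance libraries, against 6.72% and 5.66% in the PUCL differentiation and maintenance libraries. The neural stem/progenitor markers Nes, Sox2, Vim and Fabp7 were present in every library. Msi1 had no count in any library, and Hes5 had 2 counts in PUCL maintenance and none elsewhere. Of the 15 listed stem/progenitor markers, 3 were at 0 in PUCL differentiation, 2 in each PUCL@CNT1 library and 1 in PUCL maintenance. Their summed level, in CPM (counts scaled for library size by TMM), was 11412 on PUCL@CNT1 in differentiation and 7421 in maintenance medium. On PUCL it was 9237 in differentiation and 7190 in maintenance medium. By gene, the median log2 ratio of PUCL@CNT1 over PUCL in differentiation medium was 0.01, with 6 of the 13 tested below 0. Neuronal markers summed to 260 CPM on PUCL@CNT1 in differentiation and 439 CPM in maintenance medium, against 307 CPM in differentiation and 549 CPM in maintenance medium on PUCL, with Neurod1 and Nefl at 0 throughout. Of 10 microglial markers 9 or 10 were at 0 in each library, and the endothelial Pecam1 and Cdh5 were at 0 in all 4. The 7 endothelial markers summed to 29.5 CPM on PUCL@CNT1 in differentiation and 17.6 CPM in maintenance medium. On PUCL they summed to 2.78 CPM in differentiation and 14.4 CPM in maintenance medium. Of the 3 endothelial markers tested, 2 were higher and 1 was lower on PUCL@CNT1 than on PUCL in each medium. The astrocyte markers summed to 632 CPM on PUCL@CNT1 in differentiation and 549 CPM in maintenance medium, against 1079 CPM in differentiation and 546 CPM in maintenance medium on PUCL. Oligodendrocyte-lineage markers (Olig1, Olig2 and others) stood at 1573 CPM on PUCL@CNT1 in differentiation and 844 CPM in maintenance medium, against 1584 CPM in differentiation and 967 CPM in maintenance medium on PUCL. Mural and fibroblast markers, mostly Acta2 and Tagln, stood at 576 CPM on PUCL@CNT1 in differentiation and 928 CPM in maintenance medium, against 644 CPM in differentiation and 1330 CPM in maintenance medium on PUCL. By gene, 5 of the 6 tested were higher on PUCL@CNT1 than on PUCL in differentiation medium and 1 was lower. In maintenance medium all 6 were lower on PUCL@CNT1. In differentiation against maintenance medium, 4 of the 6 were higher and 2 lower on PUCL@CNT1, and all 6 were lower on PUCL. The edgeR test described below called 4 of 13 stem/progenitor, 4 of 10 oligodendrocyte-lineage and 2 of 8 astrocyte markers higher for medium (1.8% of all genes tested). It called 1 of 6 mural and fibroblast markers lower for medium (1.02% of all genes). For platform it called 1 stem/progenitor and 1 astrocyte marker lower (0.247% of all genes). Neuronal, microglial and endothelial markers had 0 calls. The part of these shifts in the values below was not tested, and in bulk RNA fewer cycling cells and less of a transcript per cell cannot be told apart.

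Replication transcripts were at their lowest in the PUCL@CNT1 library in differentiation medium. The 43 genes summed to 2945 CPM there and to 4478 CPM on PUCL@CNT1 in maintenance medium, against 4871 CPM in differentiation and 4808 CPM in maintenance medium on PUCL. The ligase gene Lig1 had the largest counts of the 43, and without it the sums were 2498 and 3717 CPM on PUCL@CNT1 in differentiation and maintenance medium, against 3919 and 3962 CPM on PUCL in differentiation and maintenance medium. The PUCL@CNT1 differentiation library was the lowest of the 4 for 26 of the 43 genes (60.5%), where 22.5% of all 10516 genes tested had their lowest level in that library. PUCL@CNT1 maintenance was lowest for 5 genes (background 21.4%), PUCL differentiation for 3 (background 23.2%) and PUCL maintenance for 7 (background 19.8%), with the lowest value tied for the rest. The PUCL@CNT1 differentiation library lay below both libraries it can be paired with, PUCL@CNT1 maintenance and PUCL differentiation, for 30 genes (69.8%, background 34.8%). By role, the sum was lowest in the PUCL@CNT1 differentiation library in 8 of 9 groups, single-strand binding being the exception. For origin firing the margin was small, at 465 CPM against 471 CPM in PUCL@CNT1 maintenance. A sum leans on its most abundant genes. Of the 495 CPM for Okazaki fragment maturation in the PUCL@CNT1 differentiation library, Lig1 made 448 CPM. The other gene of that group, Fen1, was lowest in PUCL differentiation, at 39.1 CPM against 47.4 CPM in PUCL@CNT1 differentiation.

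**Figure D1:**
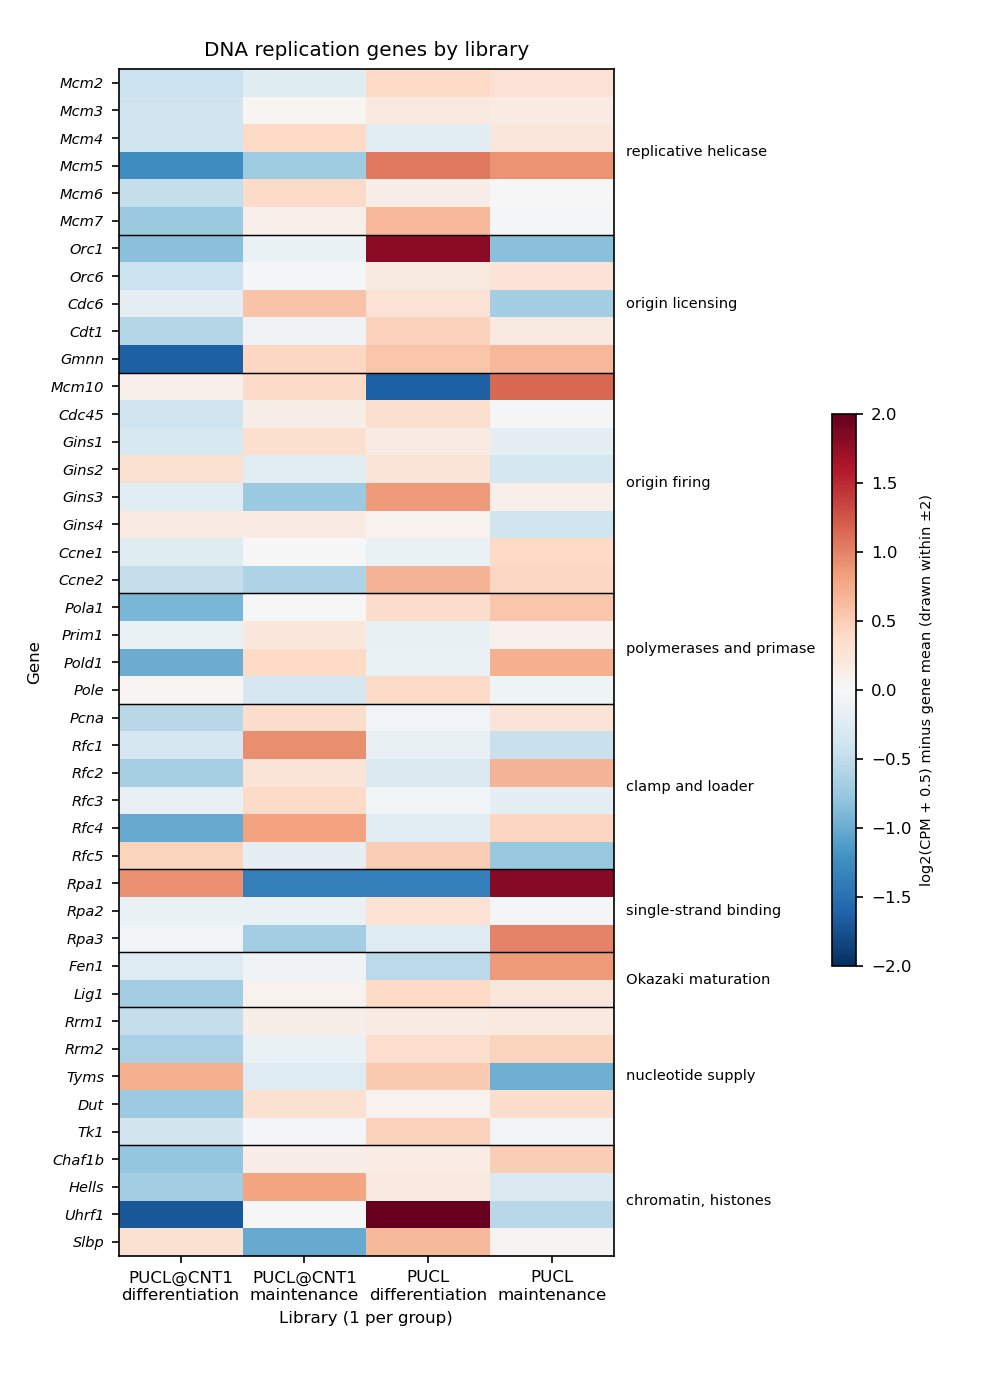
Level of each of the 43 DNA replication genes in each library, as log2(CPM + 0.5) minus the gene's mean over the 4 libraries, with colours drawn within ±2; rows are genes grouped by role and columns are libraries (1 per group). The left column, PUCL@CNT1 in differentiation medium, holds the lowest value for 26 of the 43 genes.

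**Figure D2:**
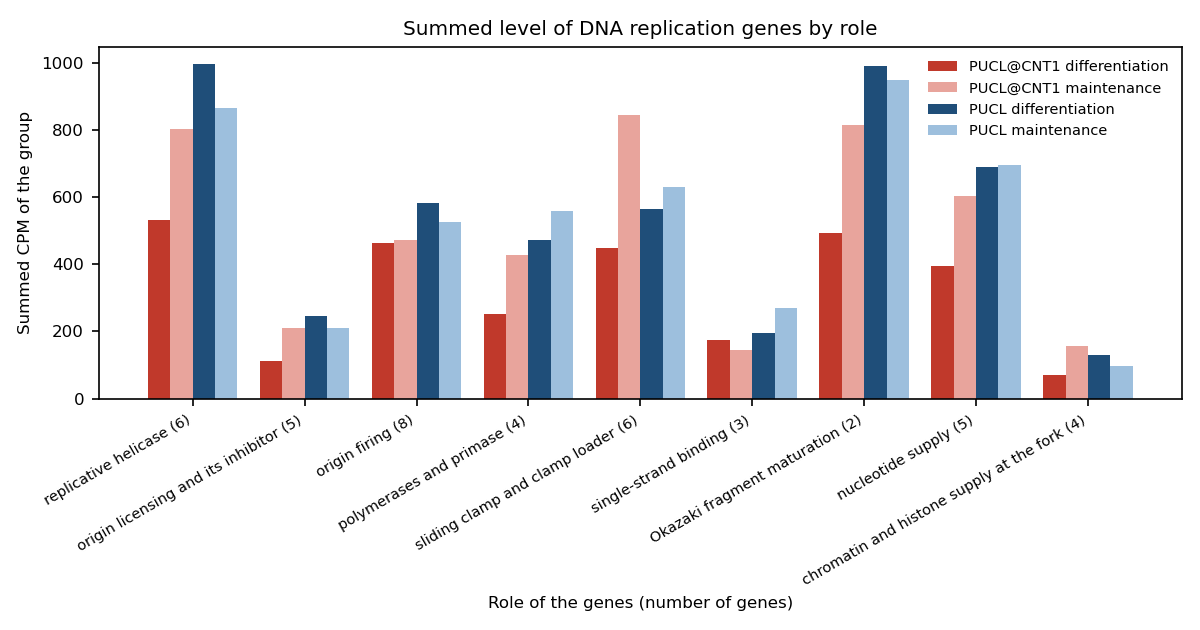
Summed CPM of the genes in each role (number of genes in parentheses), with 1 bar per library and no error bars, since each group is 1 library. The replicative helicase genes sum to 532 CPM on PUCL@CNT1 in differentiation and 805 CPM in maintenance medium, against 998 CPM in differentiation and 865 CPM in maintenance medium on PUCL.

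The first comparison asks how the differentiation medium compared with the maintenance medium on each platform. On PUCL@CNT1 the replication genes were mostly lower in differentiation medium: 34 of 43 had a log2 ratio of differentiation over maintenance below 0, and the median log2 ratio was -0.52, against -0.02 over all genes tested. On PUCL they were not, with 18 of 43 below 0 and a median log2 ratio of 0.13, against 0.03 over all genes tested. The 2 medians rest on different pairs of libraries and their difference has no test. Single pairs of libraries have no test and are described by a rule of size. A gene passed where its ratio reached 2-fold and the end of its 95% interval nearer to no difference exceeded 1.5-fold, with exact Clopper-Pearson intervals that cover counting error only. By that rule 7 genes were lower on PUCL@CNT1 in differentiation medium (background 14.5%) and 2 were higher (background 16.5%), while on PUCL 4 were lower (background 15.2%) and 4 were higher (background 16%). The 95% interval lay below 0 for 29 of the 43 on PUCL@CNT1 (background 35.1%) and for 15 on PUCL (background 36.3%). For 14 genes the intervals lay on opposite sides of 0 on the platforms, 12 of them lower on PUCL@CNT1 and higher on PUCL (background 8.67%) and 2, Rpa1 and Rpa3, the other way (background 10%). Differentiation medium was below maintenance medium on both platforms for 16 genes (37.2%, background 28.7%) and above it on both for 7 (16.3%, background 29.6%). The edgeR quasi-likelihood test over the 4 libraries, with platform as a second term and Benjamini-Hochberg adjustment, called no replication gene for medium (background 1.02% lower and 1.8% higher). At an unadjusted p under 0.05 it had 8 of the 43 (background 12.1%), DESeq2 and limma-voom also called 0, and the smallest adjusted p was 0.104, for Rfc4. That test takes the platforms as repeats of each other, so a difference present on 1 platform counts as spread.

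**Figure D3:**
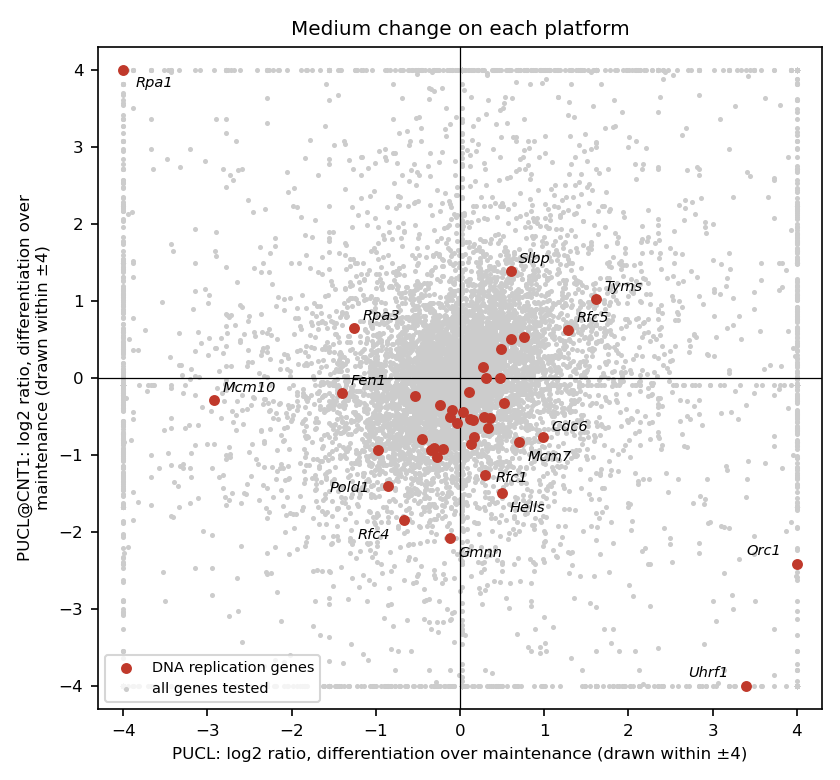
Log2 ratio of differentiation over maintenance medium for each gene on PUCL (horizontal) and on PUCL@CNT1 (vertical), both drawn within ±4; red points are the 43 DNA replication genes and grey points all 10516 genes tested. On PUCL@CNT1 34 of the 43 red points lie below 0, while on PUCL 18 lie below 0.

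The second comparison asks how PUCL@CNT1 differed from PUCL within each medium. In differentiation medium 35 of the 43 genes were lower on PUCL@CNT1, with a median log2 ratio of -0.61, against -0.03 over all genes tested. In maintenance medium 24 of 43 were lower, with a median log2 ratio of -0.10, against 0.03 over all genes tested. By the rule of size 10 genes were lower on PUCL@CNT1 in differentiation medium (background 15.6%) and 2 higher (background 15.2%), and in maintenance medium 4 were lower (background 13.9%) and 3 higher (background 12.1%). The 95% interval lay below 0 for 30 genes in differentiation medium (background 35.3%) and for 18 in maintenance medium (background 34.6%). PUCL@CNT1 was below PUCL in both media for 20 genes (46.5%, background 26.5%). The change of the platform difference, differentiation minus maintenance on the log2 scale, was below 0 for 36 of the 43, with a median of -0.58, against 0.03 over all genes. It passed the rule of size downward for 8 genes (background 14.1%) and upward for 4 (background 15.4%). These comparisons and those of medium share libraries, so they are not independent of each other. In edgeR 1 replication gene, Pola1, was called for platform (background 0.247% lower and 0.209% higher), and 9 of the 43 had an unadjusted p under 0.05 (background 6.95%).

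**Figure D4:**
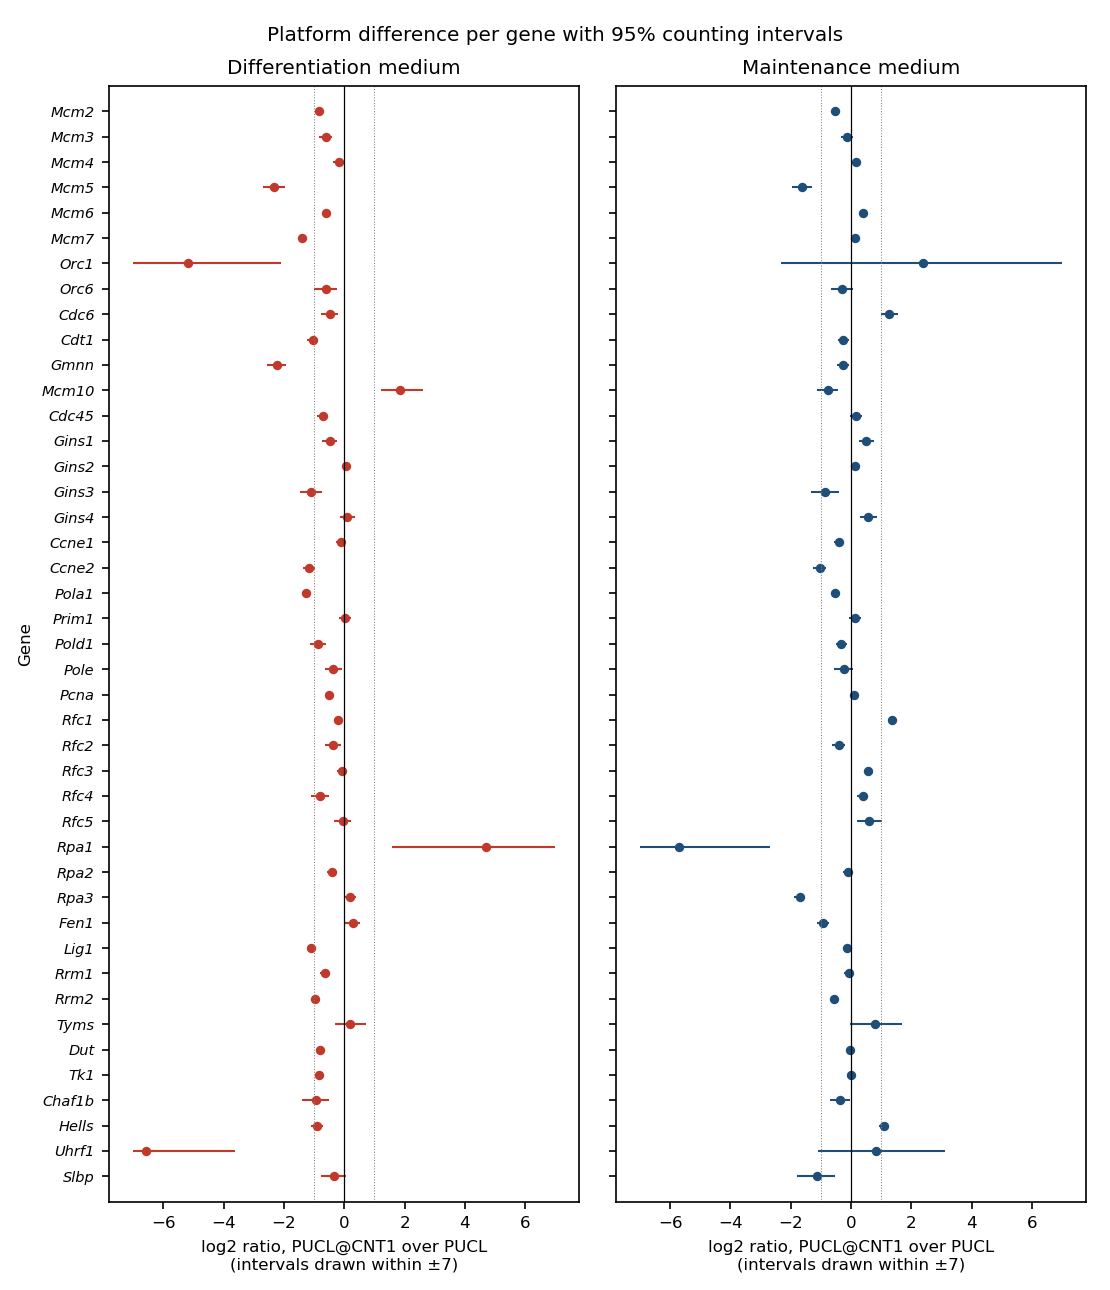
Log2 ratio of PUCL@CNT1 over PUCL for each DNA replication gene in differentiation medium (left) and maintenance medium (right); points are ratios of 2 libraries, lines are 95% counting intervals drawn within ±7, and dotted lines mark a log2 ratio of -1 and 1. In differentiation medium 35 of 43 points lie left of 0, and in maintenance medium 24 do.

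The 6 subunits of the MCM2-7 helicase, which unwinds DNA at the fork, were all lower in differentiation than in maintenance medium on PUCL@CNT1, and all lower on PUCL@CNT1 than on PUCL in differentiation medium. Mcm5 had 12.03 CPM on PUCL@CNT1 in differentiation and 17.6 CPM in maintenance medium, against 60.5 CPM in differentiation and 54.3 CPM in maintenance medium on PUCL. Both PUCL@CNT1 libraries thus lay far below both PUCL libraries, with log2 ratios of -2.32 (95% interval -2.69 to -1.98) in differentiation and -1.62 (-1.95 to -1.31) in maintenance medium. Over both media, edgeR gave Mcm5 a platform log2 fold change of -1.97 ± 0.518 (SE, 4 libraries) with an adjusted p of 0.0534, which misses the threshold of 0.05. Mcm7 had 107 CPM on PUCL@CNT1 in differentiation and 191 CPM in maintenance medium, against 285 CPM in differentiation and 175 CPM in maintenance medium on PUCL. Its level was near the same on both platforms in maintenance medium, and the libraries parted after the switch, at a log2 platform ratio of -1.41 (95% interval -1.54 to -1.29) in differentiation medium. Mcm2 had 189 CPM on PUCL@CNT1 in differentiation and 215 CPM in maintenance medium, against 336 CPM in differentiation and 311 CPM in maintenance medium on PUCL, so that both PUCL@CNT1 libraries were lower. The edgeR platform log2 fold change of Mcm2 was -0.68 ± 0.232 (SE, 4 libraries), with an adjusted p of 0.246. Mcm3, Mcm4 and Mcm6 passed the rule of size in no pair, and their log2 platform ratios in differentiation medium were -0.61, -0.18 and -0.60. The 95% interval of that Mcm4 ratio included 0, at -0.38 to 0.02. Mcm4 was the 1 helicase gene that was also lower in differentiation medium on PUCL, at a log2 ratio of -0.45, beside -0.79 on PUCL@CNT1.

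Among the licensing genes, the inhibitor stood out. Gmnn encodes geminin, which binds CDT1 and blocks a second round of licensing once S phase has begun. It had 15.3 CPM on PUCL@CNT1 in differentiation and 65.0 CPM in maintenance medium, against 72.1 CPM in differentiation and 77.9 CPM in maintenance medium on PUCL. A single library was low, 4.22-fold below its maintenance partner and 4.68-fold below PUCL in differentiation medium, while the other 3 lay close together. In edgeR Gmnn had a platform log2 fold change of -1.23 ± 0.433 (SE, 4 libraries) with an adjusted p of 0.295, and a medium log2 fold change of -1.07 ± 0.432 with an adjusted p of 0.217. Cdt1, the loading factor that geminin binds, had 52.2 CPM on PUCL@CNT1 in differentiation and 74.1 CPM in maintenance medium, against 108 CPM in differentiation and 88.8 CPM in maintenance medium on PUCL. Both PUCL@CNT1 libraries were lower, 2.07-fold so in differentiation medium. Cdc6, the ATPase that loads the helicase together with CDT1, had 29.9 CPM on PUCL@CNT1 in differentiation and 50.9 CPM in maintenance medium, against 41.9 CPM in differentiation and 21.1 CPM in maintenance medium on PUCL. It ran in opposite directions on the platforms, with a log2 medium ratio of -0.76 on PUCL@CNT1 and 0.99 on PUCL. Orc1, the large origin recognition subunit, had 0 and 2 counts on PUCL@CNT1 in differentiation and maintenance medium, against 17 and 0 counts on PUCL in differentiation and maintenance medium. With the 0 set at a floor of 3 counts per library, Orc1 in differentiation medium was lower on PUCL@CNT1 than on PUCL by at least 5.83-fold. Such a bound takes the 17 counts as exact, and the 95% interval of the log2 ratio ended nearer to 0, at -2.08. Orc6, another subunit of the complex, passed the rule of size in no pair and had a log2 platform ratio of -0.61 in differentiation medium.

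The genes that start the fork were divided. Gins2, a subunit of the GINS complex that holds the helicase and polymerase epsilon together, had 161 CPM on PUCL@CNT1 in differentiation and 113 CPM in maintenance medium, against 156 CPM in differentiation and 102 CPM in maintenance medium on PUCL. It was higher in differentiation medium on both platforms and similar between them, with an edgeR medium log2 fold change of 0.56 ± 0.288 (SE, 4 libraries) and an adjusted p of 0.43. Gins3 had 14.1 CPM on PUCL@CNT1 in differentiation and 9.77 CPM in maintenance medium, against 30.3 CPM in differentiation and 17.9 CPM in maintenance medium on PUCL. It too was higher in differentiation medium on both platforms, but lower on PUCL@CNT1 in each medium, 2.14-fold so in differentiation medium. Mcm10, which helps to switch the loaded helicase on, had 13.1 CPM on PUCL@CNT1 in differentiation and 16.0 CPM in maintenance medium, against 3.56 CPM in differentiation and 27.4 CPM in maintenance medium on PUCL. Here the low library was PUCL in differentiation medium, with 23 counts, and PUCL@CNT1 was 3.62-fold higher in that medium. The cyclins E activate CDK2 at the G1-to-S transition. Ccne2 had 49.2 CPM on PUCL@CNT1 in differentiation and 44.7 CPM in maintenance medium, against 111 CPM in differentiation and 91.7 CPM in maintenance medium on PUCL. It was 2.25-fold lower on PUCL@CNT1 in differentiation and 2.05-fold lower in maintenance medium, and the edgeR platform log2 fold change was -1.10 ± 0.357 (SE, 4 libraries) with an adjusted p of 0.203. Ccne1 had 95.4 CPM on PUCL@CNT1 in differentiation and 112 CPM in maintenance medium, against 103 CPM in differentiation and 149 CPM in maintenance medium on PUCL, a narrower spread than that of Ccne2. Cdc45 and Gins1, both parts of the active helicase, had log2 medium ratios of -0.52 and -0.65 on PUCL@CNT1 and of 0.36 and 0.34 on PUCL. Gins4 had a log2 platform ratio of 0.09 in differentiation medium.

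Pola1 was the single replication gene past the edgeR threshold. It encodes the catalytic subunit of DNA polymerase alpha, which extends the RNA primers made by primase. It had 135 CPM on PUCL@CNT1 in differentiation and 256 CPM in maintenance medium, against 325 CPM in differentiation and 374 CPM in maintenance medium on PUCL. Both PUCL@CNT1 libraries lay below both PUCL libraries, and Pola1 fell on PUCL@CNT1 over both media by 0.91 on the log2 scale (SE 0.235, 4 libraries, adjusted p of 0.0488 in edgeR's quasi-likelihood test). The call held in 3 of 12 alternative settings, DESeq2, limma-voom and the fit without ribosomal RNA entries, and the adjusted p ran from 0.0157 to 1 over the 12. Dropping the medium term alone ended it, at a log2 fold change of -0.84 over all 4 libraries. A fit with 1 library left out had to drop that term too, and then gave -0.44 without PUCL@CNT1 differentiation, -1.37 without PUCL@CNT1 maintenance, -0.925 without PUCL differentiation and -0.73 without PUCL maintenance, with no call. Pold1, the catalytic subunit of polymerase delta, had 25.7 CPM on PUCL@CNT1 in differentiation and 68.2 CPM in maintenance medium, against 47.2 CPM in differentiation and 85.1 CPM in maintenance medium on PUCL. It was lower in differentiation medium on both platforms, and the edgeR medium log2 fold change was -1.13 ± 0.404 (SE, 4 libraries) with an adjusted p of 0.133. Prim1, the catalytic primase subunit, had 62.3 CPM on PUCL@CNT1 in differentiation and 79.2 CPM in maintenance medium, against 61.4 CPM in differentiation and 72.5 CPM in maintenance medium on PUCL. Its platform log2 ratio in differentiation medium was 0.02 (95% interval -0.18 to 0.22), although primase and polymerase alpha form 1 complex. Pole, of polymerase epsilon, had log2 medium ratios of 0.37 on PUCL@CNT1 and 0.49 on PUCL.

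The 6 genes of the sliding clamp and its loader had a median edgeR log2 fold change of -0.55 for medium and 0.02 for platform, and 3 of them had an unadjusted p under 0.05 for medium (background 12.1%) and 0 for platform (background 6.95%). Pcna encodes the clamp that tethers polymerases to DNA. It had 161 CPM on PUCL@CNT1 in differentiation and 303 CPM in maintenance medium, against 227 CPM in differentiation and 282 CPM in maintenance medium on PUCL. Both differentiation libraries were lower, with log2 medium ratios of -0.91 on PUCL@CNT1 and -0.31 on PUCL and an edgeR medium log2 fold change of -0.61 ± 0.239 (SE, 4 libraries, adjusted p of 0.195). Rfc4, a small subunit of the RFC clamp loader, had 23.2 CPM on PUCL@CNT1 in differentiation and 83.4 CPM in maintenance medium, against 40.2 CPM in differentiation and 64.0 CPM in maintenance medium on PUCL. It was lower in differentiation medium on both platforms, 3.59-fold so on PUCL@CNT1, and its edgeR medium log2 fold change of -1.25 ± 0.427 (SE, 4 libraries) had an adjusted p of 0.104. Rfc1, the large subunit of the loader, had 88.6 CPM on PUCL@CNT1 in differentiation and 213 CPM in maintenance medium, against 101 CPM in differentiation and 82.3 CPM in maintenance medium on PUCL. A single library was high, PUCL@CNT1 in maintenance medium, 2.40-fold above its differentiation partner and 2.59-fold above PUCL in the same medium. Rfc3 had 118 CPM on PUCL@CNT1 in differentiation and 172 CPM in maintenance medium, against 126 CPM in differentiation and 116 CPM in maintenance medium on PUCL. The same library was the high one for Rfc3. Rfc5 had 29.9 CPM on PUCL@CNT1 in differentiation and 19.4 CPM in maintenance medium, against 31.1 CPM in differentiation and 12.7 CPM in maintenance medium on PUCL, so this subunit was higher in differentiation medium on both platforms. Rfc2 had log2 medium ratios of -0.93 on PUCL@CNT1 and -0.97 on PUCL. The 5 subunits form 1 complex, yet their transcripts did not share 1 order over the 4 libraries.

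RPA, the trimer that coats single-stranded DNA, was the 1 group whose sum was not lowest in the PUCL@CNT1 differentiation library. Rpa3 had 79.9 CPM on PUCL@CNT1 in differentiation and 51.1 CPM in maintenance medium, against 69.3 CPM in differentiation and 166 CPM in maintenance medium on PUCL. The high library was PUCL in maintenance medium, and the log2 medium ratio was 0.64 on PUCL@CNT1 and -1.26 on PUCL. Rpa2 had 93.3 CPM on PUCL@CNT1 in differentiation and 93.3 CPM in maintenance medium, against 125 CPM in differentiation and 100.4 CPM in maintenance medium on PUCL, and passed the rule of size in no pair. Rpa1, the large subunit, had 13 and 0 counts on PUCL@CNT1 in differentiation and maintenance medium, against 0 and 27 counts on PUCL in differentiation and maintenance medium. Against the floor of 3 counts, the Rpa1 level on PUCL@CNT1 exceeded that on PUCL by at least 4.21-fold in differentiation medium and was lower by at least 8.53-fold in maintenance medium, where the ends of the 95% intervals of the log2 ratio nearer to 0 were 1.57 and -2.69.

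Lig1 encodes DNA ligase 1, which seals Okazaki fragments, and Fen1 the nuclease that trims their flaps. Lig1 had 448 CPM on PUCL@CNT1 in differentiation and 761 CPM in maintenance medium, against 952 CPM in differentiation and 845 CPM in maintenance medium on PUCL. The libraries lay close in maintenance medium and 2.13-fold apart in differentiation medium, and the edgeR platform log2 fold change of -0.62 ± 0.186 (SE, 4 libraries) had an adjusted p of 0.138. In limma-voom Lig1 passed the threshold, with a log2 fold change of -0.59 and an adjusted p of 0.0204. Fen1 had 47.4 CPM on PUCL@CNT1 in differentiation and 54.4 CPM in maintenance medium, against 39.1 CPM in differentiation and 104 CPM in maintenance medium on PUCL. Fen1 therefore shared its high library, PUCL maintenance, with Rpa3 and not with Lig1. Its lowest library was PUCL differentiation, while that of Rpa3 was PUCL@CNT1 maintenance.

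Among the genes of nucleotide supply, Rrm2, the regulated subunit of ribonucleotide reductase, had 116 CPM on PUCL@CNT1 in differentiation and 164 CPM in maintenance medium, against 227 CPM in differentiation and 246 CPM in maintenance medium on PUCL. Both PUCL@CNT1 libraries lay below both PUCL libraries, and the edgeR platform log2 fold change of -0.78 ± 0.255 (SE, 4 libraries) had an adjusted p of 0.209. Dut, the dUTPase that keeps uracil out of DNA, had 100.6 CPM on PUCL@CNT1 in differentiation and 206 CPM in maintenance medium, against 176 CPM in differentiation and 213 CPM in maintenance medium on PUCL. The PUCL@CNT1 differentiation library was the low one, 2.04-fold below its maintenance partner. Tyms, thymidylate synthase, had 10.8 CPM on PUCL@CNT1 in differentiation and 5.28 CPM in maintenance medium, against 9.44 CPM in differentiation and 3.03 CPM in maintenance medium on PUCL. It was higher in differentiation medium on both platforms, on 72 and 33 counts for PUCL@CNT1 in differentiation and maintenance medium and 61 and 20 for PUCL. Rrm1, the large reductase subunit, and Tk1, thymidine kinase of the salvage route, had log2 platform ratios of -0.63 and -0.83 in differentiation medium and of -0.08 and 0.01 in maintenance medium.

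The 4 genes of chromatin and histone supply had 4 different patterns. Hells, a chromatin remodeller needed for DNA methylation, had 46.0 CPM on PUCL@CNT1 in differentiation and 130 CPM in maintenance medium, against 86.0 CPM in differentiation and 61.0 CPM in maintenance medium on PUCL. It was 2.82-fold lower in differentiation medium on PUCL@CNT1 and had a log2 ratio of 0.50 on PUCL. Uhrf1, which brings the maintenance methyltransferase to new DNA, had 0 and 7 counts on PUCL@CNT1 in differentiation and maintenance medium, against 46 and 4 counts on PUCL in differentiation and maintenance medium. Against the floor of 3 counts, Uhrf1 in differentiation medium was lower on PUCL@CNT1 than on PUCL by at least 15.8-fold with the 46 counts taken as exact, and the 95% interval of the log2 ratio ended at -3.62. Slbp, the stem-loop binding protein of histone messages, had 14.0 CPM on PUCL@CNT1 in differentiation and 5.28 CPM in maintenance medium, against 17.8 CPM in differentiation and 11.7 CPM in maintenance medium on PUCL, so it was higher in differentiation medium on both platforms. Chaf1b, a subunit of the CAF-1 histone chaperone, had 10.2 CPM on PUCL@CNT1 in differentiation and 19.5 CPM in maintenance medium, against 19.8 CPM in differentiation and 25.2 CPM in maintenance medium on PUCL.

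Set beside the promoter sequences above, the 13 genes with an E2F match had a median log2 platform ratio of -0.83 in differentiation medium, with 12 of 13 below 0, and the 23 genes with a promoter but no match had -0.50, with 18 below 0. In maintenance medium the medians were -0.15 with a match and -0.08 without. The medium ratio on PUCL was below 0 for 2 of the 13 and for 13 of the 23, with medians of 0.16 and -0.10, and on PUCL@CNT1 for 11 of the 13 and 18 of the 23, with medians of -0.55 and -0.41. Mcm5 and Pola1, whose matches are printed above, were lower on PUCL@CNT1 in both media, while Tyms, with a match as well, had a log2 platform ratio of 0.20 in differentiation medium. The difference between the promoters with and without a match has no test here.

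Other genes of the cell cycle give a frame for these values. Of 41 further fork and origin genes found in the tables, the median log2 platform ratio in differentiation medium was -0.28, with 29 below 0. Their median log2 medium ratio was -0.39 on PUCL@CNT1, with 28 below 0, and -0.21 on PUCL, with 23 below 0. For these 41 genes edgeR, DESeq2 and limma-voom called 0 for either term (6 at an unadjusted p under 0.05 in edgeR for medium, background 12.1%, and 3 for platform, background 6.95%). Dbf4, which activates the origin-firing kinase CDC7, had 15.3 CPM on PUCL@CNT1 in differentiation and 43.7 CPM in maintenance medium, against 36.5 CPM in differentiation and 83.4 CPM in maintenance medium on PUCL. Its edgeR medium log2 fold change was -1.35 ± 0.450 (SE, 4 libraries) with an adjusted p of 0.0931, and Tipin, of the fork protection complex, was likewise lower in differentiation medium on both platforms, with log2 ratios of -1.40 on PUCL@CNT1 and -1.05 on PUCL. Orc5 had log2 medium ratios of -1.72 on PUCL@CNT1 and -0.42 on PUCL, and Asf1a, a histone chaperone, of 1.44 and 0.41. In 16 further genes of nucleotide synthesis the median log2 platform ratio in differentiation medium was -0.16, with 12 below 0, and edgeR, DESeq2 and limma-voom called 0 (2 at an unadjusted p under 0.05 in edgeR for medium, background 12.1%, and 1 for platform, background 6.95%). Dck, the deoxycytidine kinase, had 0 and 36 counts on PUCL@CNT1 in differentiation and maintenance medium, against 51 and 66 counts on PUCL in differentiation and maintenance medium. The PUCL@CNT1 differentiation library was again the lowest. Umps, of pyrimidine synthesis, had 68.9 and 75.9 CPM on PUCL@CNT1 in differentiation and maintenance medium, against 30.5 and 63.7 CPM on PUCL in differentiation and maintenance medium. Rrm2b, the p53-regulated reductase subunit, had 26 and 35 counts in differentiation medium on PUCL@CNT1 and PUCL, and 0 counts in maintenance medium on both.

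Of 27 genes of G1-to-S control, 1 passed in edgeR, the cyclin-dependent kinase inhibitor Cdkn1a (p21). It was called higher for medium (background 1.8%) and for platform (background 0.209%), and limma-voom also called Ccnd1 for platform. At an unadjusted p under 0.05 edgeR had 3 of the 27 for medium (background 12.1%) and 8 for platform (background 6.95%). The median log2 platform ratio of the 27 in differentiation medium was -0.27, with 16 below 0. Cdkn1a had 702 CPM on PUCL@CNT1 in differentiation and 348 CPM in maintenance medium, against 280 CPM in differentiation and 216 CPM in maintenance medium on PUCL. The PUCL@CNT1 differentiation library was the high one, the reverse of the replication genes. Cdkn1a rose on PUCL@CNT1 over both media by a log2 fold change of 1.01 ± 0.212 (SE, 4 libraries, edgeR adjusted p of 0.0056), a call that 7 of 12 alternative settings kept, with adjusted p from 6.21e-05 to 1. The platform call was lost with the filter on a mean of 50 counts, which kept all 4 libraries and both terms (log2 fold change 1.01, edgeR adjusted p of 0.34). It was also lost when the medium term was dropped (log2 fold change 1.08). With that term dropped and 1 library left out, it was also absent without PUCL@CNT1 differentiation (0.499), without PUCL differentiation (1.29) and without PUCL maintenance (0.91). It also rose in differentiation medium over both platforms by 0.70 ± 0.211 (edgeR adjusted p of 0.0498), which 2 of 12 kept, with adjusted p from 0.00151 to 0.993. Without the PUCL@CNT1 differentiation library and without the platform term the medium value was -0.0154, while the log2 medium ratio within PUCL, which does not use that library, was 0.38 (95% interval 0.28 to 0.48). Cdkn1b (p27) had 59.6 CPM on PUCL@CNT1 in differentiation and 22.4 CPM in maintenance medium, against 59.1 CPM in differentiation and 61.6 CPM in maintenance medium on PUCL. Ccnd1, the D-type cyclin of the growth factor response, had 3712 CPM on PUCL@CNT1 in differentiation and 2636 CPM in maintenance medium, against 1898 CPM in differentiation and 2845 CPM in maintenance medium on PUCL. Tfdp1, the partner that E2F factors need to bind DNA, had 50.5 CPM on PUCL@CNT1 in differentiation and 125 CPM in maintenance medium, against 109 CPM in differentiation and 122 CPM in maintenance medium on PUCL. Its low library was the one in which the replication genes were lowest. Skp2, the ubiquitin ligase subunit that marks p27 for destruction, had 29.9 and 13.4 CPM on PUCL@CNT1 in differentiation and maintenance medium, against 59.4 and 52.9 CPM on PUCL in differentiation and maintenance medium.

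The 36 genes of mitosis and G2/M had a median log2 platform ratio of -0.49 in differentiation medium, with 31 of 36 below 0, and of -0.05 in maintenance medium. On the medium axis their medians were -0.19 on PUCL@CNT1 and -0.02 on PUCL, and edgeR called 0 of them for either term (4 at an unadjusted p under 0.05 for medium, background 12.1%, and 9 for platform, background 6.95%). For platform, DESeq2 and limma-voom each called 2 of them, Plk1 and Nusap1, and for medium DESeq2 called 0 and limma-voom 1, Pttg1, genes named here after their values were seen. Mki67, the proliferation marker Ki-67, had 70.7 CPM on PUCL@CNT1 in differentiation and 143 CPM in maintenance medium, against 128 CPM in differentiation and 125 CPM in maintenance medium on PUCL. Like Gmnn, it was low in a single library and close together in the other 3, with a log2 medium ratio of -1.02 on PUCL@CNT1. Incenp and Aurkb, of the chromosomal passenger complex, had log2 platform ratios of -1.68 and -1.18 in differentiation medium, and Mad2l1, of the spindle checkpoint, of -1.04. Ccnb2, cyclin B2, had 40.3 CPM on PUCL@CNT1 in differentiation and 19.5 CPM in maintenance medium, against 55.2 CPM in differentiation and 56.0 CPM in maintenance medium on PUCL, and so was lowest in another library than Mki67. The lower levels in the PUCL@CNT1 differentiation library were therefore found in both lists, and no test set the replication genes apart from the mitotic ones.

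**Figure D5:**
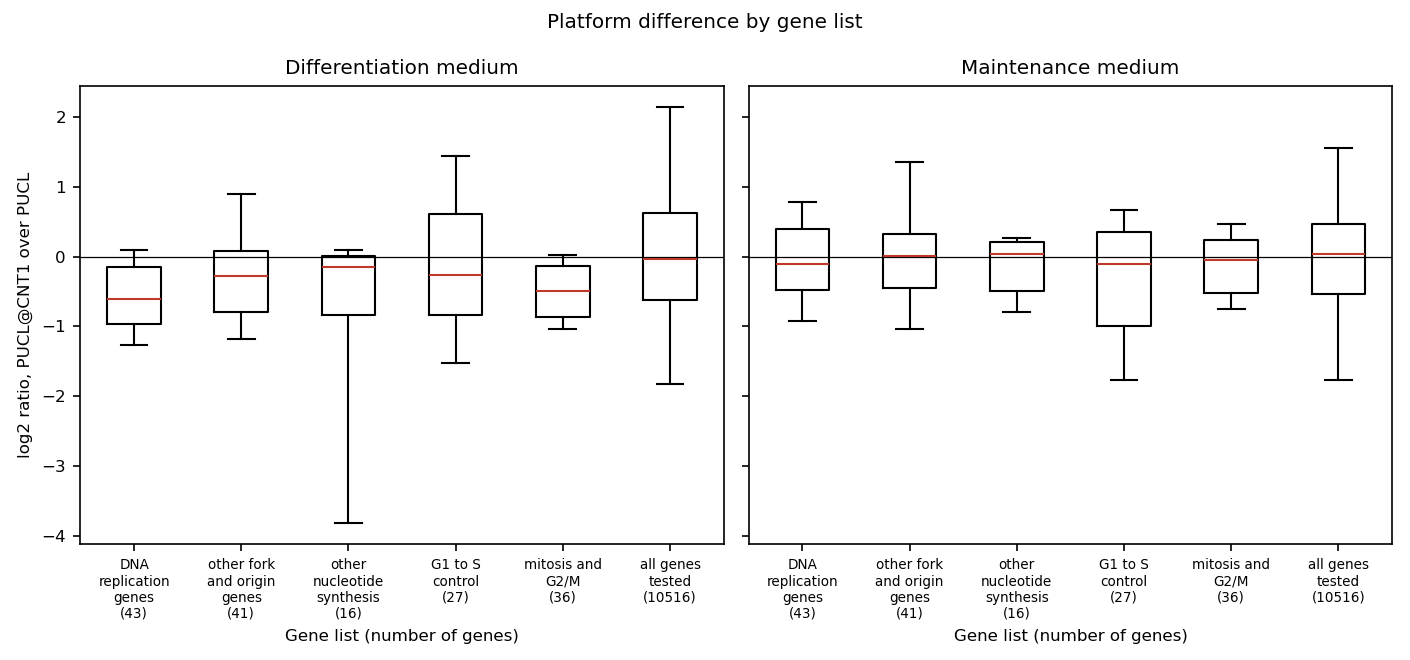
Log2 ratio of PUCL@CNT1 over PUCL by gene list in differentiation medium (left) and maintenance medium (right); red lines are medians, boxes the middle 50% of genes, and whiskers the 10th and 90th percentiles. In differentiation medium the median is -0.61 for the 43 DNA replication genes, -0.49 for the 36 mitosis and G2/M genes and -0.03 for all genes tested.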

How the data were processed

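For each of 4 libraries the authors deposited raw, unnormalized counts by gene symbol. Bowtie2, bedtools and rn6 are named in the submitters' processing notes; versions, annotation and strand setting are not given in the sources used here, so overlapping and antisense genes cannot be told apart. Entries of 1 symbol were summed, and no replication gene had several. Testing was limited to genes reaching 10 counts in any library (10516 of 16881 symbols), and libraries were scaled by TMM in edgeR 4.0.16 (R 4.3.3), which also sets the CPM. The quasi-likelihood fit had platform and medium as additive terms, 1 residual degree of freedom and 87.2 prior degrees of freedom, so p-values rest mostly on the spread of other genes. The SE beside an edgeR log2 fold change is its absolute value divided by the square root of its F statistic. It is not an error between replicates. Benjamini-Hochberg adjustment ran over all genes tested. DESeq2 1.42.0 and limma-voom (limma 3.58.1) were alternatives. Ratios of single pairs used a prior count of 0.5, and a count of 0 was set at 3 counts for bounds. Intervals cover counting error only, since each group is 1 library. They take each count as a separate molecule, and reads carried no molecular identifiers to check this. The scripts were tested on simulated counts. The genes and lists were chosen with earlier results of these data known. Per-library values are given for the genes past the size rule in any pair or past edgeR's threshold, and for the 2 genes with the highest mean count in each role, 32 in all; of the other lists, for at most 4 genes each that passed edgeR or the size rule in 2 or more pairs, plus Mki67, Ccnd1, Cdkn1a and Cdkn1b. A gene that this rule names is not reported here.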

Additional observations from a re-analysis of the deposited data

Results flagged for a closer look

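The median medium ratio of the 43 replication genes had opposite signs on the platforms, -0.52 on PUCL@CNT1 and 0.13 on PUCL on the log2 scale. For 14 genes the 95% counting intervals of the medium ratio lay on opposite sides of 0 on the platforms. The difference was not tested, since each group is 1 library. Of these, 12 were lower in differentiation medium on PUCL@CNT1 and higher on PUCL (8.67% of all genes tested did the same), and 2 ran the other way (10% of all genes tested). On the log2 scale, the helicase genes Mcm2, Mcm6 and Mcm7 had -0.19, -0.86 and -0.84 on PUCL@CNT1, against 0.11, 0.13 and 0.70 on PUCL. The licensing genes Cdc6 and Cdt1 had -0.76 and -0.51 on PUCL@CNT1, against 0.99 and 0.28 on PUCL. The firing genes Cdc45 and Gins1 had -0.52 and -0.65 on PUCL@CNT1, against 0.36 and 0.34 on PUCL. Rfc1, Lig1 and Tk1 had -1.26, -0.77 and -0.32 on PUCL@CNT1, against 0.30, 0.17 and 0.52 on PUCL. Hells and Uhrf1 had -1.5 and -4.00 on PUCL@CNT1, against 0.50 and 3.40 on PUCL. Rpa1 and Rpa3, which ran the other way, had 4.67 and 0.64 on PUCL@CNT1, against -5.75 and -1.26 on PUCL. The values of Rpa1 and Uhrf1 depend on the prior count, because each had 0 counts in at least 1 library of a pair. In the 41 further fork and origin genes the median medium ratio was below 0 on both platforms, at -0.39 on PUCL@CNT1 and -0.21 on PUCL.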

How the results depend on the processing

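No paired analysis was possible because each group is 1 library and the labels carry no replicate numbers. Leaving out a library of a single pair leaves no ratio, so this was done for the edgeR fits alone. With 3 libraries the additive fit has no residual degree of freedom, so these fits also dropped the other term and are read against the tested term alone with all 4 libraries; a lone library is assumed to vary like the others. The number of replication genes lowest in the PUCL@CNT1 differentiation library was 25 to 27 under 4 other scalings and filters, chosen after seeing the data, against 26. Platform calls among the replication genes, 1 as reported, were 0 with total counts, RLE factors, no filter, a filter on a mean of 50 counts and the tested term alone, 2 in limma-voom, and 0 to 0 without 1 library. Medium calls among them were 0 to 2 without 1 library; the 2, without PUCL differentiation, were Gmnn and Pola1, both lower. Over all genes, medium calls were 296, against 64 with the mean filter, 170 in DESeq2, and 176 with the tested term alone, beside which fits of that term gave 25, 35, 231 and 263 without PUCL@CNT1 maintenance, PUCL maintenance, PUCL differentiation and PUCL@CNT1 differentiation. Platform calls were 48, against 28 with total counts, 18 with RLE, 25 with no filter, 0 with the mean filter, 87 in limma-voom, and 0 with the tested term alone, beside which fits of that term gave 0, 1, 24 and 27 without PUCL differentiation, PUCL maintenance, PUCL@CNT1 maintenance and PUCL@CNT1 differentiation. Total counts gave 11 replication genes past the size rule as lower in differentiation medium on PUCL@CNT1, against 7. With the mean filter, 1 was higher there, 2 were higher on PUCL, and 1 was higher on PUCL@CNT1 in differentiation medium. A looser size rule of 1.5-fold with a bound of 1.2-fold gave 18 lower and 5 higher on PUCL@CNT1, 7 lower and 8 higher on PUCL, 22 lower on PUCL@CNT1 in differentiation medium, 8 lower in maintenance medium, and 18 lower for the change of the platform difference. The medium value of Cdkn1a reversed to -0.0154 with the platform term dropped and PUCL@CNT1 differentiation left out, and was 0.80 with that term dropped alone. The cause of these shifts was not tested. Some of the settings left fewer genes or libraries, while total counts, RLE factors and limma-voom kept them all. Depth limits Orc1, Rpa1, Uhrf1 and Tyms, whose mean was under 50 counts.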
